A study of Mus musculus with 2 samples.

Results

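The 48 cell cycle and DNA replication genes described here were chosen by name and found by matching each symbol to its gene in the GENCODE M21 annotation of the mouse genome build mm10. All 48 were present among the 55536 annotated genes. They comprise 23 genes of G1 and S phase (D-, E- and A-type cyclins with their kinases, the MCM helicase, licensing and fork proteins, and enzymes of deoxynucleotide synthesis), 16 genes of mitosis, 4 inhibitors of cyclin-dependent kinases (CDKs), and 5 genes of the RB, E2F and MYC axis. Cyclin A2 also acts in mitosis but was counted with the S phase cyclins.

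Levels were measured by polyA plus RNA-seq in 2 libraries of bone marrow-derived macrophages, that is, phagocytes differentiated in culture from C57BL/6J mouse marrow. Both libraries, named replicate 1 and replicate 2 in the labels, belong to a single group: cells received 100 ng/ml lipid A for 12 h, were washed out for 12 h, and were given 100 ng/ml lipid A again for 120 min before RNA was taken. Lipid A, the part of lipopolysaccharide that sits in the bacterial membrane, is sensed by the receptor TLR4. One field of the labels names it lipid A and others lipoprotein A. Both libraries carry one donor identifier and separate animals are not stated, so p-values and spreads measure these 2 libraries and may reflect technical differences. The labels give neither sex nor age. No untreated or singly treated sample was analysed here, and levels are therefore described at this one point, with no comparison of conditions.

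Total expected counts, the estimated reads per gene, were 45377715 in replicate 1 and 32112416 in replicate 2. A level is given in TPM, a transcript's share of the library corrected for its length, so that genes can be set beside each other. The labelled cell type was checked with 10 macrophage markers, and all 10 were at 10 TPM or more in both libraries, among them Lyz2 at 8979 and 9815 TPM and Cd68 at 2852 and 4047 TPM in replicates 1 and 2. Bulk RNA cannot tell fewer cells that express a gene from less RNA per cell.

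Entry into the cell cycle starts when mitogens such as CSF1, the macrophage growth factor, raise D-type cyclins, which activate CDK4 and CDK6 to phosphorylate the retinoblastoma protein RB and release E2F transcription factors. E2F targets then supply the replication machinery, and a later wave of genes, controlled by the DREAM and MuvB complexes with B-MYB (gene Mybl2) and FOXM1, drives mitosis. CDK inhibitors of the CIP/KIP and INK4 families oppose these kinases. Macrophages grown in CSF1 proliferate in culture, and lipopolysaccharide is known to halt them.

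G1 and S phase genes had a higher median level than mitotic genes in both libraries. The median level was 12.8 TPM for G1/S members against 1.27 TPM for mitotic members in replicate 1, and 9.69 against 0.80 TPM in replicate 2, a ratio of 10.1 and 12.2. Of the 23 G1/S members 20 reached 1 TPM in both libraries, against 8 of the 16 mitotic members. All 4 CDK inhibitors did so, with a median of 9.78 TPM in replicate 1 and 13.9 TPM in replicate 2, and so did 4 of the 5 RB, E2F and MYC members. In all, 36 of 48 members reached 1 TPM in both libraries, where 18.8% of all annotated genes and 44.4% of the 22028 protein-coding genes did. Another 3 members, Rrm2, Cdc6 and Foxm1, reached it in replicate 1 alone, and 9 were under 1 TPM in both, 7 of them mitotic.

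The 2 classes overlapped all the same. Mean levels ran between 0.73 and 210.5 TPM for G1/S members and between 0.18 and 31.9 TPM for mitotic members. The mitotic members Mki67, Cdk1 and Top2a stood among the G1/S members, while Rrm2, Ccna2, Cdc6 and Ccne2 of the G1/S class stood among the mitotic ones. These levels carry no test, because genes of one library are not replicates.

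**Figure D1:**
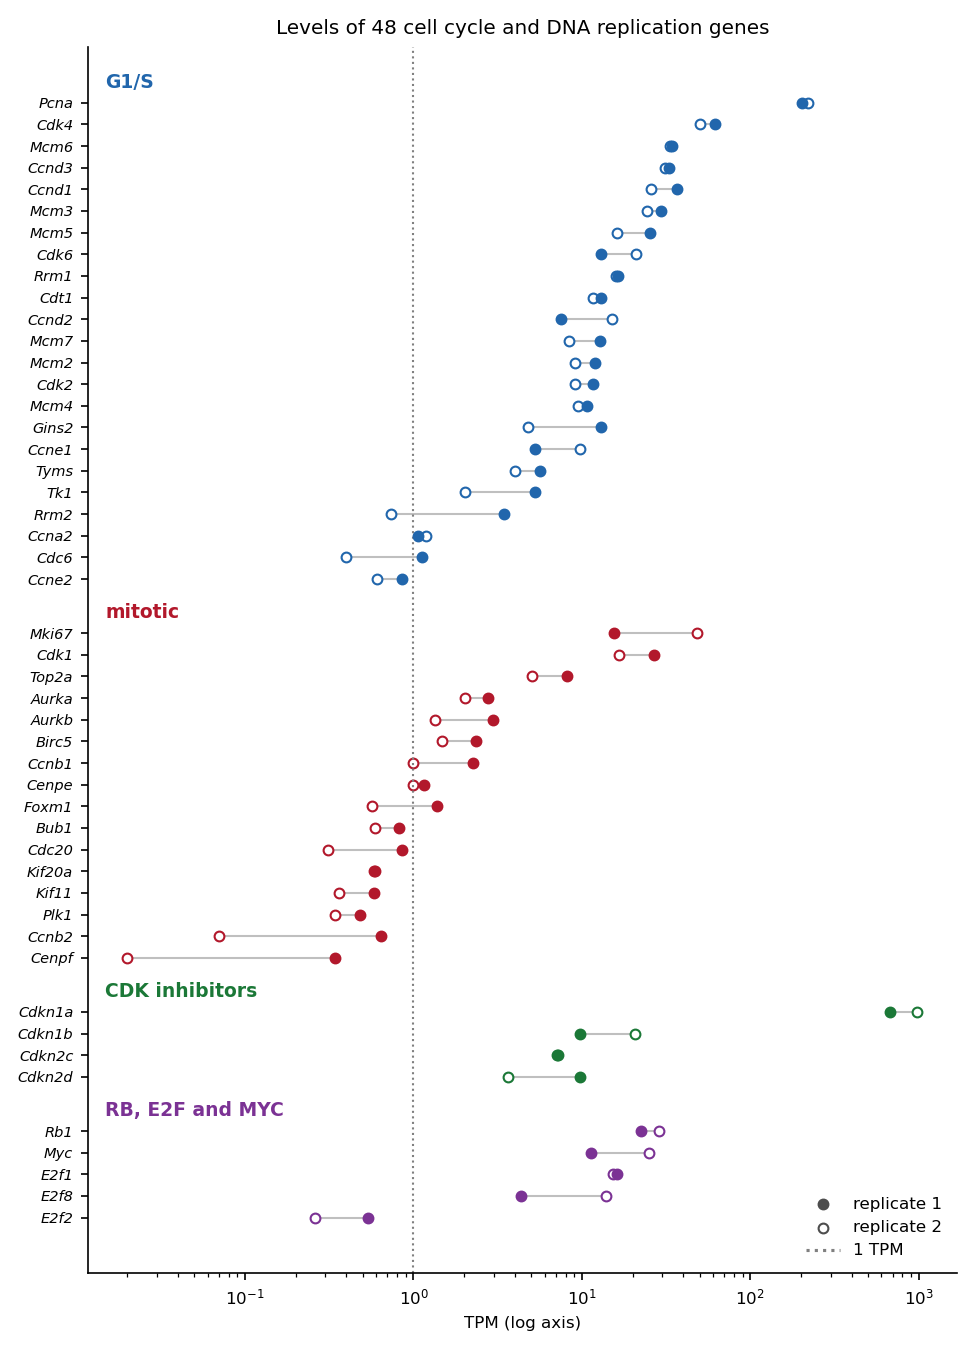
TPM of each of the 48 members on a log axis, with filled points for replicate 1 and open points for replicate 2, grouped by class and ordered by mean level. Cdkn1a stands highest at 673 and 984 TPM, and most mitotic members lie near or below the dotted line at 1 TPM.

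The CDK inhibitor Cdkn1a (p21; chromosome 17, 29090976 to 29100727, plus strand) had the highest level of all members. It was at 673 TPM in replicate 1 and at 984 TPM in replicate 2. Its mean of 828 ± 220 TPM (SD, n = 2) was the 139th highest among the 22028 protein-coding genes. In replicate 1 it equalled 95.6% of the other 47 members' TPM added together, and in replicate 2 it equalled 137%. Cdkn1a was 57.7 times as high as the kinase gene Cdk2 in replicate 1 and 109 times as high in replicate 2, and 10.9 and 19.5 times as high as Cdk4.

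The other 3 inhibitors were far lower. Cdkn1b (p27), which holds cyclin E-CDK2 inactive in resting cells, was at 9.77 TPM in replicate 1 and 20.6 TPM in replicate 2. The INK4 genes Cdkn2c (p18) and Cdkn2d (p19Ink4d), which bind CDK4 and CDK6, were at 7.08 and 7.20 TPM and at 9.79 and 3.64 TPM in replicates 1 and 2. Cdkn1b and Cdkn2d were thus high in opposite libraries, and Cdkn2c was alike in both.

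The kinase and cyclin genes that start G1 were all detected. Cdk4 was at 62.0 TPM in replicate 1 and 50.6 TPM in replicate 2, and Cdk6, which acts alongside it, at 13.0 and 21.03 TPM. Of the D-type cyclins, Ccnd1 was at 36.6 and 25.8 TPM, Ccnd3 at 32.8 and 31.1 TPM, and Ccnd2 at 7.47 and 15.1 TPM in replicates 1 and 2. Ccnd1 was 4.89 times Ccnd2 in replicate 1 and 1.71 times in replicate 2, so the order of the 2 cyclins was the same and the distance was not. Among E and A cyclins, which act with CDK2 at S phase entry, Ccne1 was at 5.30 and 9.69 TPM, Ccne2 at 0.85 and 0.61 TPM, and Ccna2 at 1.06 and 1.18 TPM. Cdk2 itself was at 11.7 TPM in replicate 1 and 9.05 TPM in replicate 2.

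All 6 subunits of the MCM helicase, which unwinds DNA at the fork, were detected, with mean levels between 10.1 and 33.9 TPM. Mcm6 was highest at 34.2 TPM in replicate 1 and 33.6 TPM in replicate 2. Mcm3 followed at 29.6 and 24.4 TPM and Mcm5 at 25.3 and 16.1 TPM, while Mcm7, Mcm2 and Mcm4 lay between 8.44 and 12.8 TPM in either library. In protein-coding transcripts alone Mcm3 and Mcm5 changed places, with mean levels of 17.1 TPM and 20.6 TPM. The highest subunit was 3.20 times the lowest in replicate 1 and 3.98 times in replicate 2, in a complex that holds each subunit in equal number.

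The licensing factors that load this helicase differed in level. Cdt1 was at 12.9 and 11.7 TPM and Cdc6 at 1.13 and 0.40 TPM in replicates 1 and 2, so Cdt1 was 11.4 and 29.2 times as high as its partner. Pcna, the sliding clamp of DNA polymerases, was the highest G1/S member at 202 TPM in replicate 1 and 219 TPM in replicate 2, 5.92 and 6.52 times the level of Mcm6. Gins2, a subunit of the GINS complex at the fork, was at 12.9 and 4.80 TPM.

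Among enzymes that make deoxynucleotides, the large subunit of ribonucleotide reductase and its partner also stood apart. Rrm1 was at 16.45 TPM in replicate 1 and 16.0 TPM in replicate 2, while Rrm2, the small subunit whose transcript is restricted to S phase in cycling cells, was at 3.44 and 0.74 TPM. Tk1 (thymidine kinase) was at 5.30 and 2.03 TPM and Tyms (thymidylate synthase) at 5.61 and 4.02 TPM. Rrm1 was nearly level between the libraries, and the other 3 were higher in replicate 1.

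Of the RB, E2F and MYC genes, Rb1 was at 22.3 TPM in replicate 1 and 28.7 TPM in replicate 2, and E2f1, an activator, at 16.2 and 15.4 TPM. E2f2, another activator, was at 0.54 and 0.26 TPM. E2f8, an atypical E2F that represses E2F targets, was at 4.33 and 13.9 TPM, and Myc, a transcription factor of growth and G1 entry, at 11.3 and 24.98 TPM. Myc and E2f8 were both more than 2 times as high in replicate 2.

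The 10 mitotic cyclins, kinases and checkpoint genes had low levels apart from Cdk1. Cdk1, the kinase of mitosis, was at 26.8 TPM in replicate 1 and 16.7 TPM in replicate 2. Its cyclins Ccnb1 and Ccnb2 were at 2.26 and 1.00 TPM and at 0.64 and 0.07 TPM. The kinase genes Aurka (2.76 and 2.02 TPM), Aurkb (2.96 and 1.34 TPM) and the survivin gene Birc5 (2.34 and 1.47 TPM) lay just above 1 TPM. Foxm1, the transcription factor of the mitotic wave, was at 1.37 and 0.57 TPM. Plk1, Bub1 and Cdc20, which act in mitotic entry, the spindle checkpoint and anaphase, were between 0.31 and 0.86 TPM in either library.

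Motor and kinetochore genes were at a like level. Kif11, Kif20a and Cenpf were under 1 TPM in both libraries and Cenpe was at 1.16 TPM in replicate 1 and 1.00 TPM in replicate 2. Top2a, the topoisomerase that untangles chromosomes, was at 8.18 and 5.03 TPM. Mki67, the gene of the proliferation marker Ki-67, which coats mitotic chromosomes, was at 15.5 TPM in replicate 1 and 48.4 TPM in replicate 2. Mki67 was 13.4 times the median of the other 15 mitotic members in replicate 1 and 81.9 times in replicate 2, and 1.89 and 9.61 times Top2a.

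Promoters of 37 of the 48 members were taken from RefSeq (GRCm38.p6), as windows from 250 bases before to 50 bases after the gene start, and searched on both strands for letters known from cell cycle promoters. For E2F sites the letters were TTTCCCGC, TTTCGCGC, TTTGCCGC and TTTGGCGC, which can overlap one another, for the cell cycle genes homology region (CHR), the element bound by MuvB complexes, TTTGAA, for the NF-Y box CCAAT, and for the E-box of MYC and related factors CACGTG. E2F letters were present in 7 of 17 G1/S members, 1 of 13 mitotic members, 0 of 4 inhibitors and 1 of 3 RB, E2F and MYC members, and in 2.61% of all 27025 genes with a window (2.26% of the 32851 windows). CHR letters were present in 1 of 17 G1/S members, 9 of 13 mitotic members, 0 of 4 inhibitors and 2 of 3 RB, E2F and MYC members, against 20.2% of all genes (17.9% of windows). NF-Y letters were present in 10 of 17, 12 of 13, 3 of 4 and 2 of 3 members of these classes, against 41.1% of all genes (37.4% of windows). E-box letters were present in 3 of 17, 0 of 13, 1 of 4 and 0 of 3, against 8.09% of all genes (7.15% of windows). A match is a description of the letters and not a shown site.

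A set of 5 windows is printed because it carries the contrast of the classes and of the libraries: Mcm6 for the E2F letters, Cdk1 for both E2F and CHR letters, Ccnb2 for CHR letters in a gene higher in replicate 1, and Mki67 and E2f8 for CHR letters in genes higher in replicate 2. Capitals mark the E2F and CHR letters on either strand, and all 5 windows lie on the minus strand of the genome, at chr1:128359656-128359955 for Mcm6, chr10:69352863-69353162 for Cdk1, chr9:70421505-70421804 for Ccnb2, chr7:135716330-135716629 for Mki67 and chr7:48881547-48881846 for E2f8. Sequences run 5′ to 3′.
Mcm6: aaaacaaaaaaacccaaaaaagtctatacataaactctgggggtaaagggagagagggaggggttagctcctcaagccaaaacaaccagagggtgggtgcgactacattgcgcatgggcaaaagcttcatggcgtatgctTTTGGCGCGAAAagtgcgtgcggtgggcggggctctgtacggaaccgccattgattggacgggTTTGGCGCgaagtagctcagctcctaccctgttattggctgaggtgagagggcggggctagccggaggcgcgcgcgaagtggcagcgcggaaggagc
Cdk1: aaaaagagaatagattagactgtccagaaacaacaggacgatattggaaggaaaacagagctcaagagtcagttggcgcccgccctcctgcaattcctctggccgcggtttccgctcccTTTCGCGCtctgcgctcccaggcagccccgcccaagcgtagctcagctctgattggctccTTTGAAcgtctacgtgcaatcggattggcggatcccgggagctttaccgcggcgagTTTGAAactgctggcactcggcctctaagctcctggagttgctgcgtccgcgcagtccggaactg
Ccnb2: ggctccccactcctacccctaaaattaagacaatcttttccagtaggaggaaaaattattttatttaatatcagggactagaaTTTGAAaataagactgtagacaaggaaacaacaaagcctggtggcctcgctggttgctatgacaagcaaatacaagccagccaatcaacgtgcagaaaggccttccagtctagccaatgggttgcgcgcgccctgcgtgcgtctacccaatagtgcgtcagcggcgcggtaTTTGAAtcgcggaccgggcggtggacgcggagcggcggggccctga
Mki67: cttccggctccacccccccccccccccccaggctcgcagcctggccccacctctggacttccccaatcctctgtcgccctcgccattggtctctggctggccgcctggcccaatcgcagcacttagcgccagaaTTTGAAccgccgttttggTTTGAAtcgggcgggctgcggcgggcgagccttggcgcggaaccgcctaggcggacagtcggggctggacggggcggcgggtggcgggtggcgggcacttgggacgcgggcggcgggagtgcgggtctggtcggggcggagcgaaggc
E2f8: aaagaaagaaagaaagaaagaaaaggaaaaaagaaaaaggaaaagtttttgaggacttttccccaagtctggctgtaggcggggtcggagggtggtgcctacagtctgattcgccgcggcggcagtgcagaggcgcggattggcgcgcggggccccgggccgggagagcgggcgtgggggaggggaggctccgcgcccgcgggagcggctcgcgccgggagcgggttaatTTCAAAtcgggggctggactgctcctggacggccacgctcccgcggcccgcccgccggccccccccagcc
In the Mcm6 window the first run of capitals holds 2 overlapping E2F matches, one on each strand. The CHR letters of E2f8 lie on the opposite strand, 20 bases before the start, and those of Mki67 start 116 and 98 bases before it.

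**Figure D2:**
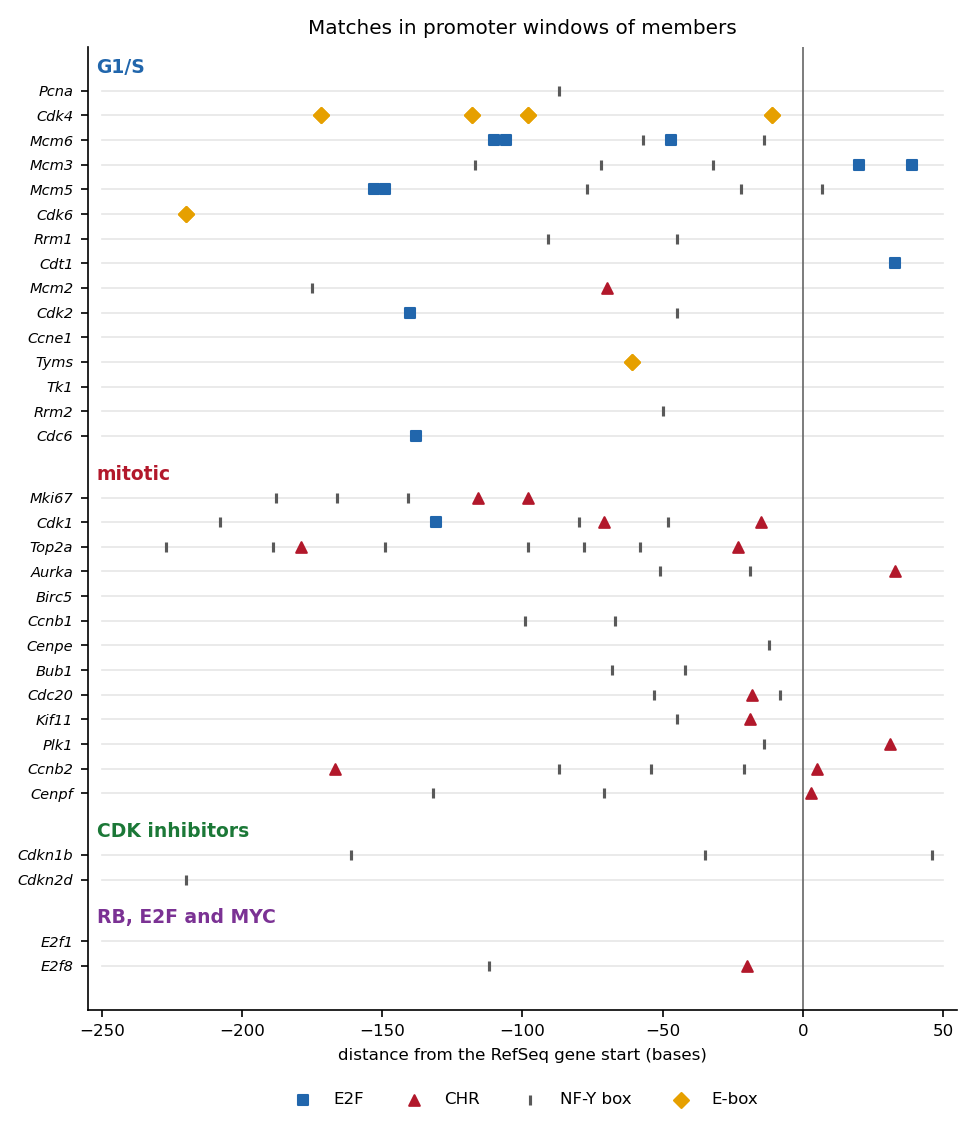
Position of each match, in bases from the RefSeq gene start, for the 32 members with a single window, grouped by class and ordered by mean level. Squares are E2F, triangles CHR, bars the NF-Y box and diamonds the E-box, and triangles lie almost all in the mitotic class.

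The 2 libraries were then compared gene by gene, to see which members held the same level in both. Reads were compared by an exact binomial test, two-sided, of expected counts rounded to whole reads, with library sizes scaled by TMM and Benjamini-Hochberg adjustment over 12552 genes whose mean was 10 expected counts or more. The log2 ratio is replicate 1 over replicate 2. The test allows for counting error only and compares 2 libraries, not conditions. At an adjusted p below 0.05 it called 28 of the 48 members higher in replicate 1 and 10 higher in replicate 2, and 10 were not called. Of all tested genes it called 65.2%, with 32.5% higher in replicate 1 and 32.7% higher in replicate 2. A difference of at least 2-fold was found for 9 members higher in replicate 1 and 5 higher in replicate 2, where the shares of all tested genes were 5.97% and 5.34%. The median log2 ratio was 0.41 over members and 0.02 over all tested genes.

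**Figure D3:**
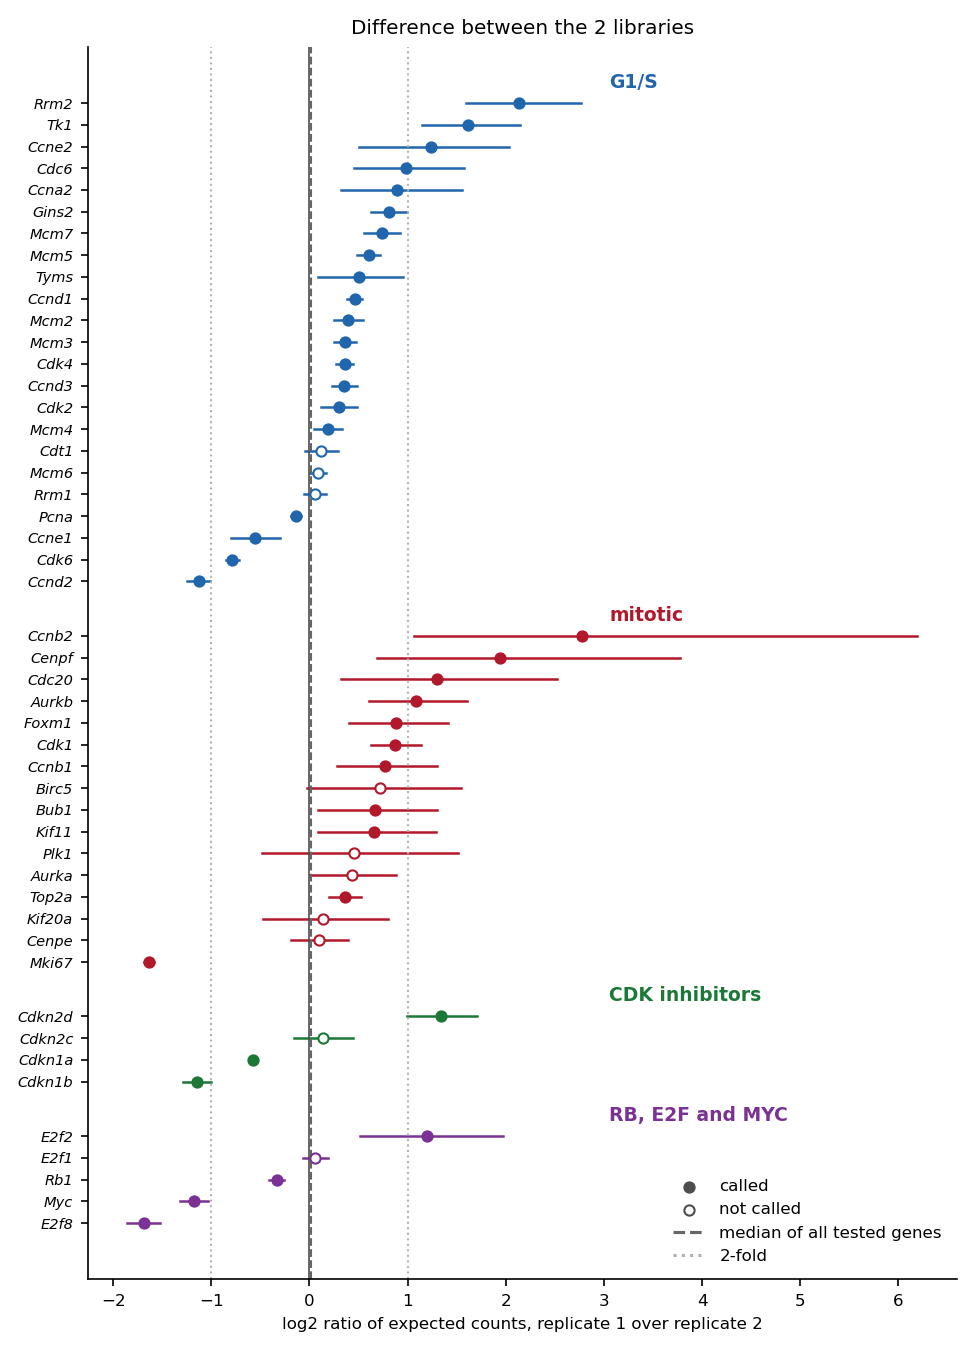
Log2 ratio of expected counts, replicate 1 over replicate 2, for each member with its 95% counting interval, grouped by class and ordered by ratio. Filled points were called, the dashed line is the median of all tested genes, and Mki67 stands alone below 0 among the mitotic members.

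By class, G1/S members had a median log2 ratio of 0.36, with 16 called higher in replicate 1 and 4 in replicate 2. All 6 MCM genes had a ratio above 0, and 5 were called, with Mcm7 at 0.74 (95% counting interval 0.56 to 0.93) and Mcm5 at 0.60 (0.49 to 0.72). The 4 deoxynucleotide genes also lay above 0, and Rrm2 had 199 reads in replicate 1 and 30 in replicate 2, a log2 ratio of 2.14 (1.60 to 2.76), the largest of the G1/S members. Tk1 had 198 and 43 reads, a log2 ratio of 1.62 (1.15 to 2.14). The 4 G1/S members called higher in replicate 2 were Ccnd2 at -1.13 (-1.24 to -1.02), Cdk6 at -0.78 (-0.85 to -0.72), Ccne1 at -0.55 and Pcna at -0.14. Mcm6, Cdt1 and Rrm1 were not called, with log2 ratios between 0.06 and 0.12.

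Mitotic members had a median log2 ratio of 0.69, with 10 called higher in replicate 1, 1 called higher in replicate 2 and 5 not called. All 10 mitotic cyclins, kinases and checkpoint genes had a ratio above 0, and 7 of them were called. Cdk1 had 475 reads in replicate 1 and 174 in replicate 2, a log2 ratio of 0.87 (0.62 to 1.14). Ccnb2 had 25 reads in replicate 1 and 2 in replicate 2, a log2 ratio of 2.78 with an interval as wide as 1.07 to 6.19, and Cenpf had 31 and 5 reads, 1.95 (0.68 to 3.78). Not called were Plk1, Aurka, Birc5, Kif20a and Cenpe, with 95% intervals of the log2 ratio that reach up to 1.51 for Plk1, 1.54 for Birc5, 0.88 for Aurka, 0.81 for Kif20a and 0.40 for Cenpe.

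Mki67 went the other way. It had 4753 reads in replicate 1 and 9924 in replicate 2, a log2 ratio of -1.63 (-1.68 to -1.58), and was the only mitotic member with a ratio below 0. Its second quantification, made by the authors directly from the reads, gave 12.7 TPM in replicate 1 and 44.9 TPM in replicate 2. Top2a had 878 and 459 reads, a log2 ratio of 0.36 (0.20 to 0.53), so that the 2 proliferation markers pointed to different libraries. E2f8 had the lowest ratio of all members, -1.69 (-1.85 to -1.53), from 448 reads in replicate 1 and 972 in replicate 2. Myc had 676 and 1024 reads, a log2 ratio of -1.17 (-1.31 to -1.03), and Rb1 was at -0.33, while E2f2 was at 1.19 and E2f1 was not called.

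The inhibitors split. Cdkn1b had 643 reads in replicate 1 and 956 in replicate 2, a log2 ratio of -1.14 (-1.29 to -0.999), and Cdkn1a was at -0.57 (-0.59 to -0.55). Cdkn2d had 321 and 85 reads, a log2 ratio of 1.34 (0.996 to 1.71). Cdkn2c, at 0.14 (-0.16 to 0.44), was not called. Both CIP/KIP members were therefore among the 10 called higher in replicate 2, with Ccnd2, Cdk6, Ccne1, Pcna, Rb1, Myc, E2f8 and Mki67, and the INK4 member Cdkn2d was higher in replicate 1.

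**Figure D4:**
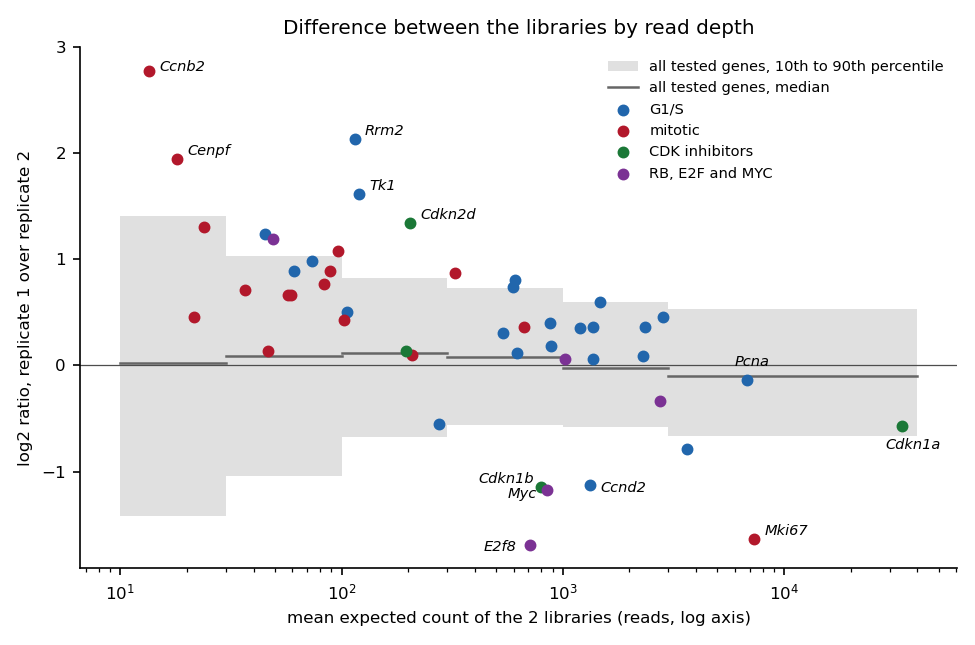
Log2 ratio, replicate 1 over replicate 2, of each member against its mean expected count on a log axis, coloured by class. Grey bands span the 10th to the 90th percentile of all tested genes in bins of the count, and lines give their median; Mki67, E2f8, Cdkn1b, Myc, Ccnd2 and Cdk6 lie below the bands, and Ccnb2, Cenpf, Rrm2, Tk1 and Cdkn2d are among those above them.

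Read depth differed between the classes. A mean of under 100 reads was found for 3 of 23 G1/S members and 11 of 16 mitotic members. Those 11 mitotic members had a median log2 ratio of 0.77, all above 0. The 5 mitotic members with a mean of at least 100 reads had a median of 0.36, the same to 2 decimals as that of the 20 G1/S members with such a mean. The class medians thus differed where members under 100 reads were included, and not without them. The spread of all genes was also wide there, and the 10th and 90th percentiles of the log2 ratio were -1.42 and 1.41 for genes with a mean between 10 and 30 reads, and -0.58 and 0.60 between 1000 and 3000 reads.

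The ratio also moved with transcript length. Spearman's correlation of length with the log2 ratio was -0.25 over the 48 members and -0.25 over the 12552 tested genes, each a description across genes of 1 pair of libraries. With the tested genes split by length into 3 sets of 4184, members had median log2 ratios of 0.72, 0.43 and 0.27 among the shortest, middle and longest genes (11, 19 and 18 members), and all tested genes had 0.22, 0.00 and -0.10. With a trend on length and GC content over all tested genes removed, the G1/S median was 0.35 and the mitotic median 0.64, and 10 members were at least 2-fold higher in replicate 1 and 4 in replicate 2.

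Ratios were also set beside the promoter letters. All 9 members with E2F letters had a ratio above 0, between 0.09 and 1.19, where 21 of 28 without them did. Of all 48 members 38 had a ratio above 0, and of all 12552 tested genes 6432 did. Among those 9, Mcm6 and Cdt1 were not called. Whether the letters bear on the ratio was not tested. Of 12 members with CHR letters, 10 had a ratio above 0 and the other 2 were Mki67 and E2f8, printed above, with -1.63 and -1.69, against 2.78 for Ccnb2. Without CHR letters 20 of 25 had a ratio above 0. Members with E2F letters had a median mean level of 12.3 TPM and those without 6.66 TPM. With CHR letters it was 1.49 TPM and without them 10.6 TPM. Letters and class cannot be told apart here: 7 of the 9 members with E2F letters were G1/S, and 9 of the 12 with CHR letters were mitotic.

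Markers of other cells that marrow cultures can hold also differed between the libraries. Calls for these markers are to be read beside those of all tested genes, 32.5% higher in replicate 1 and 32.7% higher in replicate 2. Of 16 neutrophil granulocyte markers 7 were detected. Of the 9 tested, 6 were called in favour of replicate 1 and 1 of replicate 2. The summed level of the 16 was 292 TPM in replicate 1 and 219 TPM in replicate 2. Most of that sum was Csf3r, at 118 and 159 TPM and called higher in replicate 2, and Lcn2, at 96.0 and 43.2 TPM and called higher in replicate 1. S100a9 was at 26.4 and 1.18 TPM, S100a8 at 25.8 and 3.72 TPM, and the granule gene Ngp had 7.99 and 0.40 TPM, while Retnlg and Ly6g had no reads. The cycling precursors of neutrophils are known for Elane, Mpo, Prtn3 and Ctsg, and each of these 4 was under 1 TPM in both libraries. The 7 early neutrophil progenitor markers summed to 4.58 TPM in replicate 1 and 5.25 TPM in replicate 2, most of it Gfi1. Gfi1 had 185 reads in replicate 1 and 226 in replicate 2. The others had more reads in replicate 1, but too few to be tested. In replicates 1 and 2 Elane had 8 and 0 reads, Mpo 10 and 4, Prtn3 13 and 3, and Ctsg 3 and 0. Ms4a3 had 2 and 1 reads, and Cebpe 2 and 0. Of 9 stem and progenitor markers 8 were under 1 TPM in both libraries, and Cd48, at 224 and 155 TPM, made up most of their sum. Of the 4 tested, Cd48 was called higher in replicate 1, and 3 were called higher in replicate 2: Kit at 0.35 and 0.80 TPM, Myb at 0.14 and 0.70 TPM and Meis1 at 0.30 and 0.64 TPM. Of 8 erythroid markers 7 had no reads in either library, and the eighth, Klf1, had 4 and 0 reads. Megakaryocyte markers summed to 274 and 95.9 TPM, most of it Pf4. Of T cell, B cell, mast cell, stromal and endothelial markers 1 of 8, 1 of 7, 1 of 7, 0 of 7 and 3 of 6 were detected, among them Cd4 at 52.2 and 59.8 TPM, Cd79b at 7.31 and 2.47 TPM, Hdc at 5.21 and 6.99 TPM, Kdr at 4.57 and 14.3 TPM and Vwf at 2.91 and 6.72 TPM. The part of these cells in the members' ratios was not tested.

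Other genes of the same pathways, from lists made with earlier results of these data known, were counted in the same way. Of all tested genes 32.5% were called higher in replicate 1 and 32.7% higher in replicate 2, and each list is to be read beside these shares. Of 37 further replication and G1/S genes 33 were detected, 18 were called higher in replicate 1 and 4 higher in replicate 2. The median of their log2 ratios was 0.32. Rfc2, a clamp loader subunit, was at 82.4 and 64.0 TPM, the single-strand binding protein gene Rpa1 at 39.8 and 38.8 TPM, and Gins4 at 23.8 and 28.6 TPM. Rpa2 was the only one at least 2-fold apart, at 6.61 and 3.17 TPM. Of 43 further mitosis genes 22 were detected and 17 were under 1 TPM in both. Of the 42 tested, 20 were called higher in replicate 1 and 5 higher in replicate 2. Their median log2 ratio was 0.41. The securin gene Pttg1 was highest at 132 and 192 TPM and was not called. Tpx2, which activates Aurora A at the spindle, was at 8.74 and 21.6 TPM with a log2 ratio of -1.29, and the checkpoint gene Mad2l1 was at 17.3 and 28.1 TPM with -0.66. Tpx2 and Mad2l1 thus lay on the side of Mki67, whereas Bub3, at 44.7 and 36.9 TPM, and the condensin gene Ncapd2, at 4.31 and 3.62 TPM, lay on the side of Cdk1.

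The list of 17 further RB family, DREAM and E2F genes also held Ccnc, Ccnh and Cdk7, which belong to none of these. Of the 17, 15 were detected, 7 were called higher in replicate 1, Cdk7 among them, and 5 higher in replicate 2. E2f4, the repressor E2F of resting cells, was at 34.4 and 37.7 TPM and Lin37, a MuvB subunit, at 32.0 and 22.4 TPM. Rbl2 (p130), the pocket protein of DREAM, was at 15.7 and 28.9 TPM with a log2 ratio of -0.55. Of 16 other inhibitors and antiproliferative genes 13 were detected, and of the 14 tested 3 were called higher in replicate 1 and 5 higher in replicate 2. Gadd45b, a stress gene that can bind CDK1, was at 406 and 341 TPM, and the antiproliferative genes Ccng1 and Btg1 were at 70.1 and 91.7 TPM and at 59.0 and 75.0 TPM. Cdkn1c (p57), also of the CIP/KIP family, was at 2.38 TPM in replicate 1 and 19.1 TPM in replicate 2, a log2 ratio of -2.67, and Gadd45a was at 29.3 and 62.0 TPM, -1.15. Pkmyt1, the kinase that holds CDK1 inactive, was at 4.09 and 1.76 TPM, 1.19.

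All 18 genes of the p53 list, to which Cdkn1a belongs as a target in textbooks, were detected, and 9 were called higher in replicate 1 and 7 higher in replicate 2. Their log2 ratios had a median of 0.05. Calls in either direction covered 65.2% of all tested genes, and 79.2% of those with a mean between 1000 and 3000 reads. Bax was at 120 and 81.1 TPM, Plk2 at 85.2 and 114 TPM and Mdm2 at 83.2 and 94.6 TPM. Gdf15 and Phlda3 were at least 2-fold higher in replicate 1, at 66.1 and 29.8 TPM and at 8.50 and 3.82 TPM. In the MYC network 7 of 10 genes were detected, and of 8 tested the calls favoured replicate 1 for 2 and replicate 2 for 5. Max, the partner of MYC, was at 150 and 209 TPM and its competitor Mxd1 at 48.3 and 55.1 TPM, both above Myc itself, and Mlx was at 55.8 and 39.3 TPM. The last list held 8 genes of CSF1 signalling and macrophage growth control, among them Csf2ra and Csf2rb, the chains of the receptor for GM-CSF and not for CSF1. All 8 were detected, and 1 was called higher in replicate 1 and 5 in replicate 2, of which Csf2ra and Csf2rb were 2. The CSF1 receptor gene Csf1r was at 456 and 596 TPM, while its log2 ratio of counts, 0.22, pointed to replicate 1. Csf2rb was at 129 and 349 TPM, but its 11666 and 10324 expected counts gave a smaller log2 ratio of -0.40. The kinase gene Fes was at 103 and 126 TPM. Csf1, the ligand of Csf1r, was at 63.5 and 150 TPM with a log2 ratio of -1.01, and Egr2, an immediate-early gene, was at 4.27 and 11.6 TPM with -1.38.

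The transcripts behind a gene's level were mixed for many members. The leading transcript held under 90% of the gene's TPM in at least one library for 32 of 48 members, while for 33 members at least 90% lay in protein-coding transcripts in both libraries. Cdk1 and Tyms had more TPM outside than inside protein-coding transcripts in both. The retained-intron transcript Cdk1-204, 475 bases long, held 54.0% of Cdk1's TPM in replicate 1 and 59.4% in replicate 2, but 90.1 of Cdk1's 475 reads in replicate 1 and 42.9 of its 174 reads in replicate 2, since TPM divides reads by length. The coding level of Cdk1 was 11.7 TPM in replicate 1 and 6.77 TPM in replicate 2. For Tyms, chosen after its values were seen, the transcript Tyms-205, annotated as a target of nonsense-mediated decay, held 52.0% and 52.8%. The coding level of Tyms was 1.48 and 0.76 TPM.

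**Figure D5:**
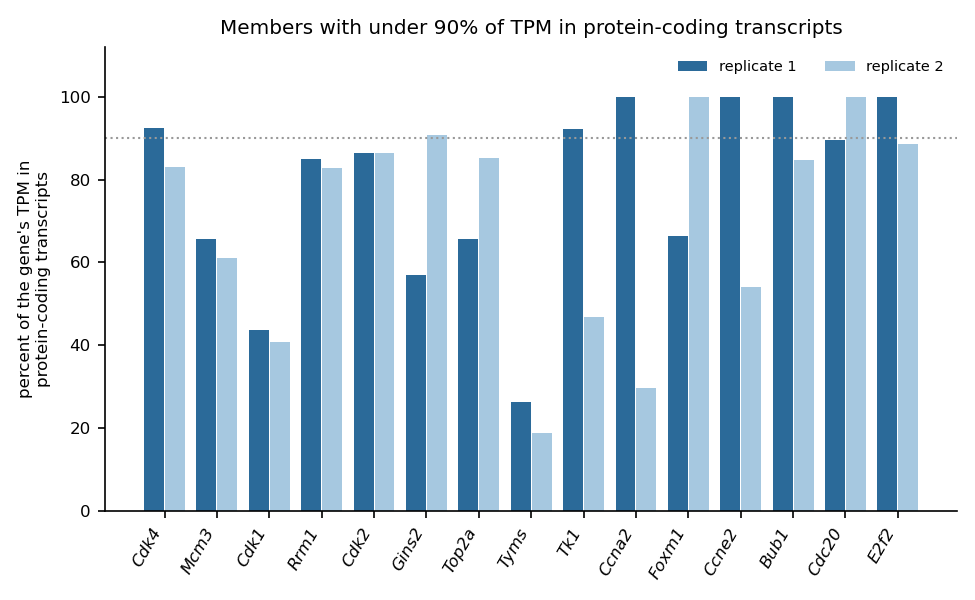
Percent of the gene's TPM in protein-coding transcripts in replicate 1 (dark bars) and replicate 2 (light bars), for the 15 members under 90% (dotted line) in either library, ordered by mean level. Cdk1 and Tyms are under 50% in both libraries, and Ccna2, Tk1 and Ccne2 are far lower in replicate 2.

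Mcm3 had 2 short retained-intron transcripts, Mcm3-205 and Mcm3-203, with 19.9% and 14.5% of its TPM in replicate 1, and with 39.0% and 0% in replicate 2. The second quantification did not bear out these shares. It gave Mcm3-205 2.18 TPM in replicate 1 and 0 TPM in replicate 2, and Mcm3-203 0 TPM in both. Mcm3 was the only member whose mean TPM differed by over 1.5 times between the 2 quantifications, at 1.62 times. Ccnd3-208, a coding transcript of 931 bases, held 7.95% of Ccnd3's TPM in replicate 1 and 35.7% in replicate 2, against 85.2% and 58.2% for the leading Ccnd3-205. Among the other members of the 12 described by level, E2f1-201 held 74.2% and 71.0% of E2f1, Cdk6-202 held 72.9% and 77.6% of Cdk6, and Ccnd2-201 held 72.2% and 79.0% of Ccnd2 in replicates 1 and 2. Likewise Mcm5-203 held 57.6% and 58.2% of Mcm5, Mcm7-201 held 71.0% and 64.2% of Mcm7, Rrm1-201 held 85.0% and 82.8% of Rrm1, and Cdk4-201 held 84.1% and 77.5% of Cdk4. Cdkn1b was divided among 3 coding transcripts, with Cdkn1b-201 at 49.3% and 39.6% and Cdkn1b-203 at 39.6% and 44.3%, so its leading transcript differed between the libraries. Myc was divided among 4 coding transcripts, 2 of which, Myc-201 and Myc-205, are given equal values at 27.8% and 29.6% each. Members of lower level, chosen after their values were seen, had wider swings, and Ccne2-202 held 100% and 14.7% of Ccne2, Cdc6-201 held 34.0% and 100% of Cdc6, and Gins2-201 held 57.0% and 90.9% of Gins2.

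For Ccna2 the reading depends on the unit. Its TPM was 1.06 in replicate 1 and 1.18 in replicate 2, a log2 ratio of TPM of -0.15, but it had 89.6 and 32.1 expected counts, a log2 ratio of 0.89. In replicate 1 all reads went to the coding Ccna2-201, while in replicate 2 a processed transcript of 953 bases, Ccna2-204, took 12.0 reads and 70.2% of the TPM. The coding level of Ccna2 was 1.06 TPM in replicate 1 and 0.35 TPM in replicate 2. This transcript was chosen after its values were seen.

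Some members share sequence with a neighbour, and the strand used in counting is not given in the sources used here. Of the 48 members 24 overlap another annotated gene and 19 share exon bases with one. For 6 of them a neighbour on the opposite strand had more reads over both libraries. These neighbours were Tspan31 for Cdk4, Ints8 for Ccne2, Exosc9 for Ccna2, Cops6 for Mcm7, Elovl1 for Cdc20 and Cdc23 for Kif20a. The levels of these 6 members are uncertain. Cdc20 had 38 and 10 reads beside 6055 and 4197 of Elovl1, but shares 53 of its 1868 exon bases. Kif20a, with 57.6 and 35.1 reads beside 858 and 525 of Cdc23, shares 1271 of 4338. Gins2 and Tk1 fall outside these 6, but their levels are uncertain as well. Gins2 shares 2758 of its 4097 exon bases with Gse1, which had 653 and 326 reads beside 878 and 337 of Gins2. Tk1 shares 83 of 5198 with Afmid, which had 149 and 91.4 reads beside 198 and 43 of Tk1. Without the 6 members, but with Gins2 and Tk1, the ratio of the G1/S to the mitotic median level was 8.31. It was 10.4 with all members, both from the mean TPM of the 2 libraries.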

How the data were processed

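PolyA plus RNA-seq of 2 libraries of 1 group was analysed from the gene and transcript tables the authors deposited, on mm10 with GENCODE M21 per the submitters' processing notes. Per the file headers, these tables hold expected counts, which the authors estimated per gene, TPM, FPKM and, per transcript, the percent of its gene's abundance. The deposited second transcript table (estimated counts and TPM, made from the reads with an index and no alignment file) was summed to genes. Which programs and strand setting were used is not given in the sources used here. Rows that name no gene, 0.0788% and 0.0771% of counts, stayed out. A floor of 3 reads equals 0.0661 CPM in replicate 1 and 0.0934 CPM in replicate 2. Amplified reads are not independent molecules, so floors and intervals speak of counting error alone.

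Members and lists were chosen with earlier results of these data known. A gene was called detected at 1 TPM or more in both libraries. Library sizes came from edgeR 4.0.16 (TMM). The binomial test on rounded counts ran in scipy 1.17.1 under Python 3.11.15. It and its Benjamini-Hochberg adjustment covered all 12552 genes whose mean reached 10 reads, with a prior of 0.5 reads in the log2 ratio. Both were tested on simulated data. Those simulated counts held counting error alone, which the test assumes, so they cannot show its behaviour under other differences between libraries. The 95% intervals of the ratio are exact for the share of reads. Named are all 48 members. Of each other pathway list the 3 genes with the highest mean TPM are named, with up to 4 that differ at least 2-fold at a mean of 100 reads or more. Of each list of markers of other cells the first 2 by mean TPM were computed. Both are named for the neutrophil, early neutrophil progenitor, stem and progenitor, and endothelial lists. For the erythroid, megakaryocyte, T cell, B cell and mast cell lists the first alone is named, and for the stromal list neither. The defining markers printed beside them were chosen after their values were seen. Transcripts are described for up to 12 members whose leading transcript is under 90% in a library. The alternatives tried were library totals, DESeq2 1.42.0 size factors, TPM ratios with a pseudocount of 0.01, a prior of 2 reads, other floors and filters, FPKM, the second quantification, and, added after seeing the data, coding transcripts alone, a length and GC trend (lowess over 0.3 of the genes, statsmodels 0.14.6) and leaving out members that share exons.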

Additional observations from a re-analysis of the deposited data

How the results depend on the processing

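Depth limits the mitotic class most, since 11 of its 16 members had a mean under 100 reads. The labels hold a single group, and no paired analysis was possible because there is no second group to pair with. Of 50 summary values under an alternative, 45 stayed within 1.5 times, within the spread of the libraries or on the same side. The others were as follows. At a floor of 10 TPM 16 members were detected, in place of 36 at 1 TPM. With a mean of at least 100 reads required, 16 members were called higher in replicate 1, in place of 28, because only 33 members were tested. The ratio of the G1/S to the mitotic median level, 10.4, was 12.0 with protein-coding transcripts alone and 8.31 without the members that share exons with a gene of more reads. Leaving out a replicate gave this ratio values between 10.1 and 12.2 and detected members between 36 and 39. Of 321 log2 ratios of single members, 309 were alike, 7 passed the threshold only under the alternative, 1 lost it, 3 moved by over 1.5 times, and 1 turned, Ccna2, whose TPM ratio was -0.15. Of 240 mean levels of members, 43 moved by more than the spread of the libraries, 25 of them with FPKM, whose scale differs. The median log2 ratio of all tested genes moved to 0.09 with library totals. With a mean of at least 100 reads required, the mitotic median log2 ratio was 0.36 in place of 0.69.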
